A study of Mus musculus with 32 samples.

Results

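The genes described here are 10 genes known from the cardiac atria, followed across 4 tissues and 2 genotypes of the mouse. They are Myl7, Myl4, Nppa, Nppb, Mybphl, Fgf12, Tmem163, Dkk3, Sbk2 and Bmp10. They were chosen by their TPM in Mut and WT hearts, after those values were known, and listed by name. All 10 were found among the 51510 genes of the expression table. Because the difference between mutant and wild-type hearts served to choose them, it is given below as a description with no test. The libraries of the other tissues were not used for that choice, and there the genes were tested.

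The libraries came from male C57BL/6J mice that carried either a knockout of Smim30, a gene for a small integral membrane protein (labelled Mut), or the wild-type genes (WT). Heart, brown adipose tissue (BAT), skeletal muscle and liver were taken from 4 individual mice per tissue and genotype and frozen in liquid nitrogen, which gave 32 libraries in 8 groups of 4. No age, treatment, or design of the knockout allele is stated in the sources used here, and the labels do not say whether the heart samples held whole hearts, single chambers or pieces. The submitters describe separate mice within a tissue. They do not state if libraries of one number in different tissues share a mouse.

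The atria and ventricles of the adult heart build much of the same contractile machinery, but the atria use their own myosin light chains and release natriuretic peptides into the blood. Myl7 and Myl4 encode the regulatory and the essential light chain of atrial myosin, while Myl2 and Myl3 encode those of the ventricle. Nppa and Nppb encode the precursors of the atrial and the B-type natriuretic peptide, hormones that lower blood volume and pressure. Nppa is kept high in the adult atria and low in the adult ventricles, whereas Nppb is also made by ventricles, above all under wall stress. Bmp10 encodes a ligand of the BMP family that in the adult heart comes mainly from the right atrium and acts through the receptor ALK1 on blood vessels.

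Expression was measured by RNA sequencing as TPM, a share of the transcripts in a library that is corrected for transcript length and scaled to the same sum in each library. The read depth of the libraries is unknown, because TPM keeps no totals, so the precision of each value was read from the spread between the 4 libraries of a group. The tissue labels fitted their markers: the heart myosin gene Myh6, the brown fat gene Ucp1, the muscle actin gene Acta1 and the liver gene Alb were each highest in all 8 libraries of the tissue they mark. Outside its own tissue each of these markers still had 0.842% to 3.23% of its mean level there. RNA of the targeted gene, taken to be the gene annotated as 2610001J05Rik, was present in all libraries, at 17.8 to 27.4 TPM in Mut hearts and 32.7 to 37.6 TPM in WT hearts. It was also lower in all Mut than in all WT libraries of muscle (24.3 to 27.3 TPM in Mut, 32.9 to 35.7 TPM in WT), and overlapped between genotypes in BAT and liver. Whether the knockout removes this RNA or only its protein is not stated. Mitochondrially encoded genes held 40.7% to 54.5% of the TPM in Mut hearts, with the highest share in Mut library 2, and 41.2% to 43.7% in WT hearts.

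Before their start sites Myl7, Nppa, Nppb, Mybphl and Bmp10 have the core letters bound by GATA factors, which drive cardiac genes. The promoters shown are those of the 5 genes with these letters. Myl7, Nppa and Mybphl had the same order of WT hearts, and the order of Nppb and Bmp10 differed. Myl4, Tmem163 and Sbk2 shared the order of Myl7, but their windows held no GATA letters. The window of Myl4 belongs to the start of a transcript, Myl4-201, that held 0.106% of Myl4 TPM in WT hearts. Whether the letters bear on the order of WT hearts was not tested. The sequences come from RefSeq on the mouse build GRCm38.p6. It has windows of 300 bases for 9 of the 10 genes (250 before and 50 after the start) and none for Dkk3. The 250 bases before the start are printed 5′ to 3′ on the gene's own strand for Myl7 (chr11:5898783-5899032, minus strand), Nppa (chr4:148000472-148000721, plus strand), Mybphl (chr3:108364661-108364910, plus strand) and Bmp10 (chr6:87428744-87428993, plus strand). For Nppb, 30 bases are printed (chr4:147985798-147985827, plus strand), which lie before the RefSeq start and inside the transcript of the GENCODE annotation. Capitals mark matches on either strand to any of the following motifs. The GATA letters were AGATAA or TGATAA. The T-box letters were AGGTGT, the NKX2-5 letters were the 5 letters AAGTG, and the CArG box is the motif of serum response factor.
Myl7: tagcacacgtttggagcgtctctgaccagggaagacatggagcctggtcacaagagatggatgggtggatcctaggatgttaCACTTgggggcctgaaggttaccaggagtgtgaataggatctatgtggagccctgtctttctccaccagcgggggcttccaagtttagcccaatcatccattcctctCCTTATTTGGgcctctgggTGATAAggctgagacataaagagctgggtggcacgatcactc
Nppa: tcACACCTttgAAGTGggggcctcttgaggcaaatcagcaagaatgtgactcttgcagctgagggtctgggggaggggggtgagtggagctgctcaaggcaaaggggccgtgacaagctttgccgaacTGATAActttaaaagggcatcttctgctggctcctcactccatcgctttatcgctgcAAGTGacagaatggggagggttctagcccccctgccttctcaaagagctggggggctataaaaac
Mybphl: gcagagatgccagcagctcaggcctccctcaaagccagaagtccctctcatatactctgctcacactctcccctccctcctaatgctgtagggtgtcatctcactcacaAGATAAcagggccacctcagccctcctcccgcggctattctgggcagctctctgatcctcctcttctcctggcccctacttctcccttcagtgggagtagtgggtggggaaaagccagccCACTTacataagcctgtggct
Bmp10: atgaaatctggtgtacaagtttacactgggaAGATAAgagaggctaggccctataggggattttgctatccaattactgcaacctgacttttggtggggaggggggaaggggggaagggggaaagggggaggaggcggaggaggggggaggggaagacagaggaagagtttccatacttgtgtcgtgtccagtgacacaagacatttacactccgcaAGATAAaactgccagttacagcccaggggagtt
Nppb: atgcagcTGATAAatcagAGATAAccccac
The GATA letters lie at bases -42 to -37 before the start of Myl7, with a CArG box at -61 to -52, at -122 to -117 of Nppa, at -141 to -136 of Mybphl, at -219 to -214 and -33 to -28 of Bmp10, and at -95 to -90 and -84 to -79 of Nppb. They occurred in the windows of 5 of the 9 genes, against 18.6% of all 32851 RefSeq windows of this length. The NKX2-5 letters occurred in 6 of the 9, against 46.4% of all windows, the T-box letters in 2 (Nppa and Fgf12), against 13.7%, and the CArG box in 2 (Myl7 and Tmem163), against 1.63%. Letters of COUP-TF (AGGTCA) and the MEF2 motif were each found in Fgf12 alone (16.3% and 3.19% of all windows), and those of PITX (TAATCC; 7.06% of all windows) in no window of these genes. Fgf12 has 4 windows, so it had more sequence in which to match than the others. The motifs are short, and AAGTG can be part of a T-box site, so a match describes letters only.

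On the log2(TPM + 1) scale the myosin light chains showed the largest differences of the 10 genes in heart. In proportion the Mut mean of Tmem163 was smaller still, at 1.05% of the WT mean. Myl7, on chromosome 11 (5896637 to 5898782, minus strand, GRCm38), had 2.64, 3.76, 20.6 and 2.74 TPM in Mut hearts, in the order of replicates 1 to 4, against 371, 555, 96.8 and 626 TPM in WT hearts. All 4 Mut libraries lay below all 4 WT libraries, and the nearest pair, WT 3 and Mut 3, still differed 4.69-fold. The means were 7.44 ± 8.81 TPM in Mut and 412 ± 236 TPM in WT (SD, n = 4 each), a difference in mean log2(TPM + 1) of -5.78, so that the Mut mean was 1.81% of the WT mean.

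Myl4, also on chromosome 11 (104550663 to 104595753, plus strand), had the same order of WT libraries, and Mut 3 was again the highest Mut library. It had 2.95, 3.18, 17.1 and 2.92 TPM in Mut hearts and 278, 423, 68.8 and 501 TPM in WT hearts, with means of 6.53 ± 7.03 and 318 ± 190 TPM (SD, n = 4 each). The difference in mean log2(TPM + 1) was -5.44. In WT hearts the light chains kept a near-constant proportion. Myl4 TPM divided by Myl7 TPM was 0.711 to 0.800 there, while Myl7 varied 6.47-fold and Myl4 7.28-fold within the WT group. In Mut hearts the ratio was 0.827 to 1.12, above that of every WT heart. Myl7 in Mut 1, 2 and 4 lay within the 1.90 to 6.59 TPM of BAT, muscle and liver, so those ratios were taken at the level found outside heart. One transcript, Myl4-202, whose start lies at 104577281, held 90.7% ± 6.21 of Myl4 TPM in Mut hearts and 98.7% ± 0.246 in WT hearts (SD, n = 4 each). The RefSeq window of Myl4 belongs to another start, that of Myl4-201, which held 0.106% of Myl4 TPM in WT hearts.

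Their ventricular counterparts did not pass the test between genotypes, which was limma on log2(TPM + 1) over all genes that averaged 1 TPM or more in the tissue, at an adjusted p under 0.05. Myl2 averaged 6259 ± 1327 TPM in Mut hearts and 7583 ± 483 TPM in WT hearts (SD, n = 4 each; log2 fold change -0.30, limma adjusted p = 0.473), and Myl3 averaged 3096 ± 738 and 3595 ± 206 TPM (-0.25, adjusted p = 0.544). The groups of both genes overlapped, and the lowest library of each was Mut 2, the one with the highest mitochondrial share. In WT hearts the Myl7 mean was thus far below that of Myl2 on the same per-length scale.

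The natriuretic peptide genes parted from each other. Nppa (chromosome 4, 148000722 to 148002079) had 68.0, 14.6, 47.2 and 46.0 TPM in Mut hearts, against 763, 1288, 143 and 2049 TPM in WT hearts. The groups did not overlap, and the means were 43.9 ± 22.0 TPM in Mut and 1060.4 ± 808 TPM in WT (SD, n = 4 each; difference in mean log2 -4.21). Nppb lies on the same strand 13516 bases upstream (147985788 to 147987205) and had 105, 38.1, 15.3 and 74.7 TPM in Mut hearts and 80.3, 48.6, 23.4 and 43.9 TPM in WT hearts. The Mut range enclosed the WT range, with means of 58.2 ± 39.5 TPM in Mut and 49.0 ± 23.5 TPM in WT and a difference in mean log2 of 0.05.

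The order of libraries also differed between the peptides. In WT hearts Nppa went with the light chains, at 1.47 to 3.27 times the Myl7 TPM of the same library. In Mut hearts that ratio was 25.7, 3.88, 2.29 and 16.8 in replicates 1 to 4. The ratio of Nppb to Myl7 was 39.6, 10.1, 0.744 and 27.3 in Mut, against 0.217, 0.0875, 0.242 and 0.0702 in WT. The divisor Myl7 was 2.64, 3.76 and 2.74 TPM in Mut replicates 1, 2 and 4, within the 1.90 to 6.59 TPM of BAT, muscle and liver. The large ratios there thus rest on a low divisor. Among Mut hearts, replicate 3 had the most Myl7 and Myl4 and the least Nppb, while replicate 1 had the most Nppa and Nppb. WT 3 was the lowest WT library for Nppa, Nppb and the light chains alike.

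**Figure D1:**
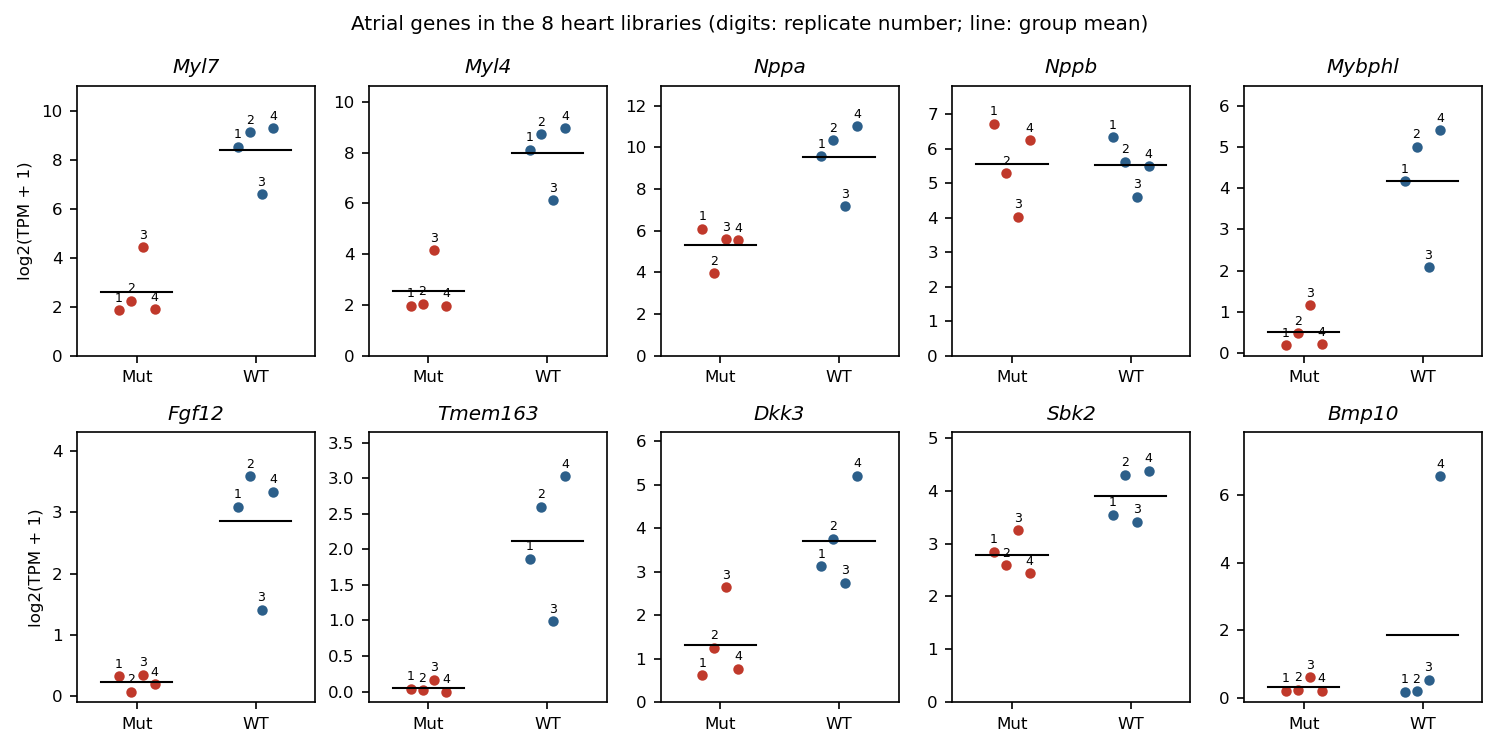
Levels of the 10 atrial genes as log2(TPM + 1) in each heart library, Mut at the left and WT at the right of each panel; digits are replicate numbers and lines are group means (n = 4). In 8 panels all Mut points lie below all WT points, WT 3 is the lowest WT point in 9 panels, and the groups of Nppb and Bmp10 overlap.

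Mybphl, Fgf12 and Tmem163 were near the bottom of the measured range in Mut hearts. Mybphl encodes a myosin-binding protein related to protein H (chromosome 3, 108364911 to 108380057). Its levels were 0.145, 0.396, 1.24 and 0.160 TPM in Mut hearts and 17.0, 31.2, 3.25 and 41.7 TPM in WT hearts, a difference in mean log2 of -3.66. Fgf12, on chromosome 16 (28160098 to 28753068), encodes a fibroblast growth factor homologous factor that stays inside the cell and modulates voltage-gated sodium channels. It had 0.254, 0.0527, 0.278 and 0.147 TPM in Mut hearts and 7.54, 11.0, 1.66 and 9.14 TPM in WT hearts (difference in mean log2 -2.62). The highest Mut library was 5.99-fold below the lowest WT library. Fgf12-205 and Fgf12-206 together made up nearly all of it in WT hearts, at 67.3% ± 3.08 and 31.7% ± 3.81 of the gene's TPM (SD, n = 4).

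Tmem163 encodes a zinc transporter of intracellular membranes (chromosome 1, 127486546 to 127679548). It had 0.0301, 0.0141 and 0.123 TPM in Mut replicates 1 to 3 and was listed at 0 in Mut replicate 4, against 2.66, 5.06, 0.987 and 7.13 TPM in WT hearts. Of the 8 genes whose groups did not overlap, it had the widest gap in proportion, 8.04-fold between WT 3 and Mut 3. In WT hearts 48.2% ± 6.17 of its TPM lay on the protein-coding transcript Tmem163-203 and 38.4% ± 16.5 on Tmem163-202, annotated as a retained intron.

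Dkk3 and Sbk2 differed less. Dkk3, on chromosome 7 (112116017 to 112159057), encodes a secreted protein of the Dickkopf family that diverges from the WNT inhibitors of that family. It had 0.538, 1.40, 5.24 and 0.709 TPM in Mut hearts and 7.71, 12.6, 5.72 and 36.0 TPM in WT hearts (difference in mean log2 -2.39). Mut 3 and WT 3 differed 1.09-fold, so the groups only just failed to overlap. Sbk2, on the same chromosome (4940512 to 4964406), encodes a serine/threonine kinase with an SH3-binding domain. Its levels were 6.19, 5.02, 8.51 and 4.45 TPM in Mut hearts and 10.7, 18.7, 9.64 and 19.7 TPM in WT hearts (difference in mean log2 -1.12), with a gap of 1.13-fold between Mut 3 and WT 3.

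Bmp10 (chromosome 6, 87428994 to 87437677) was high in 1 library of the 32. It had 0.159, 0.182, 0.521 and 0.156 TPM in Mut hearts and 0.134, 0.148, 0.451 and 93.6 TPM in WT hearts. Without WT 4, the remaining 3 WT libraries (0.134 to 0.451 TPM) overlapped the Mut libraries (0.156 to 0.521 TPM). The difference in mean log2 was then 0.011, against -1.55 with all libraries. The gene reached the minimum for testing in heart through WT 4 alone.

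Set against all genes, 8 of the 10 had all Mut heart libraries below all WT heart libraries, which was the case for 866 of 12019 genes, or 7.21%. The median difference over the 10 was -2.50 on log2(TPM + 1), against a median of -0.11 over all genes. Nothing is read from this contrast with all genes, since the genes were listed for it. With a pseudocount of 0.1 in place of 1 the median over the 10 was -4.38. Mybphl, Fgf12, Tmem163 and Bmp10 lay below 1 TPM in at least 3 of the 4 Mut libraries. In whole-tissue RNA, fewer cells of a type and less RNA per cell cannot be told apart, and this holds for every level in heart given here. How much atrial tissue each heart sample held is not stated, so a differing amount of it and a difference due to the genotype cannot be told apart in these values.

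Among WT hearts most of the genes ranked the libraries alike. The order was 4, 2, 1, 3 for 7 of the 10 genes, as for 11.7% of the 12019 genes tested in heart, the exceptions being Fgf12 (2, 4, 1, 3), Nppb and Bmp10. WT 3 was lowest for 9 of the 10 genes (31.3% of all genes) and WT 4 highest for 8 (61.7% of all genes). Among Mut hearts, replicate 3 was highest for 8 genes, all but Nppa and Nppb (47.3% of all genes), while the order of the other Mut libraries differed from gene to gene. The 11 cardiac transcription factors, to take another list, were highest in WT 4 for 10 genes and in Mut 3 for 9, so these traits are not particular to the atrial genes. The spread within WT was itself large, since the highest WT library exceeded the lowest 6.47-fold for Myl7, 14.4-fold for Nppa, 12.8-fold for Mybphl and 2.05-fold for Sbk2.

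**Figure D2:**
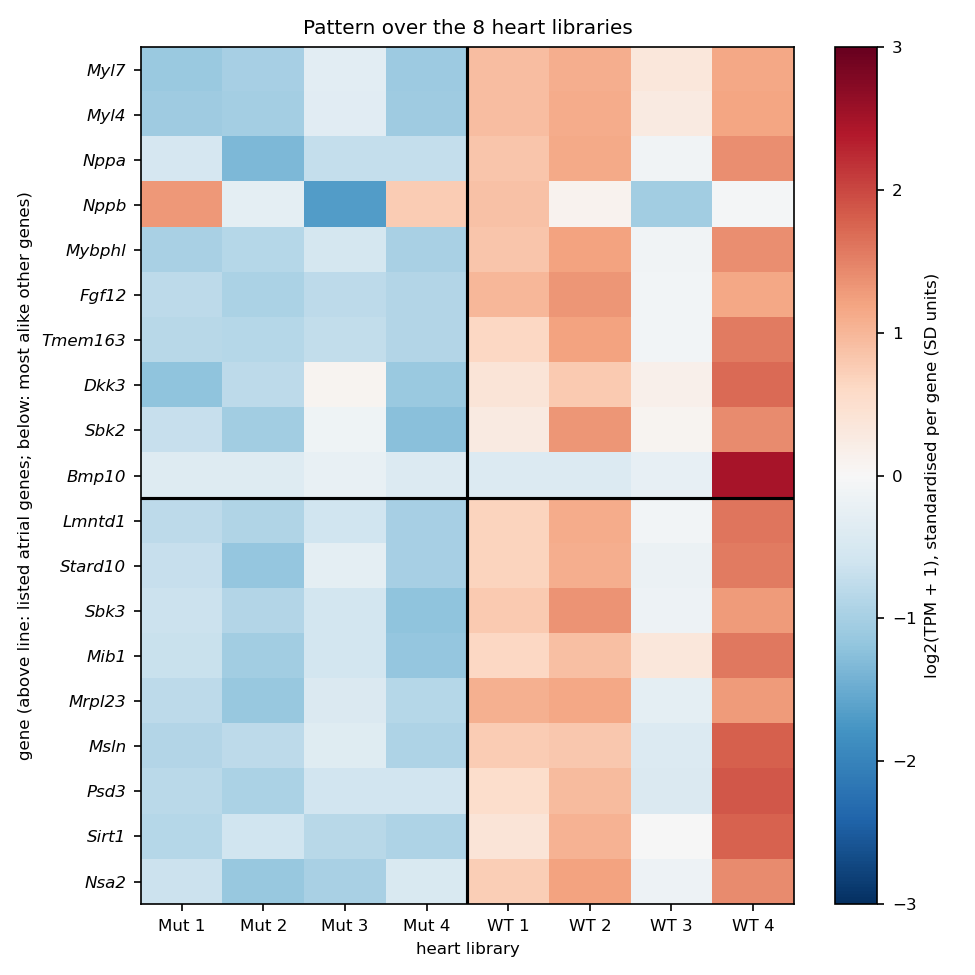
Standardised log2(TPM + 1) per gene (colour, SD units) in the 8 heart libraries, for the 10 listed genes above the line and the 9 named genes with the most similar pattern below it. Most rows run from low in Mut to high in WT 4, 2 and 1, with WT 3 in between, and Nppb and Bmp10 stand out from this pattern.

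Of the 12019 genes at 1 TPM or more in heart, those whose pattern over the 8 libraries came closest to the mean of the 10 were Lmntd1, Stard10, Sbk3, Mib1, Mrpl23, Msln, Psd3, Sirt1 and Nsa2, with 1 more that has only a provisional name. Pearson's r with that mean was 0.997 for Lmntd1 and 0.988 for Stard10, and 0.970 or more for the rest. This r is a description over 8 libraries that share the difference between genotypes, and carries no test. Lmntd1, a lamin tail domain gene, had 0.191, 0.103, 0.346 and 0.0237 TPM in Mut hearts and 2.29, 3.50, 0.941 and 5.40 TPM in WT hearts. Some of these genes tracked the order at much smaller amplitude: Mib1, an E3 ubiquitin ligase of the Notch pathway, stayed at 6.03 to 6.52 TPM in Mut hearts and 7.32 to 8.56 TPM in WT hearts.

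Likeness to single genes gave partly other names. The nearest to Myl7 were Myl4 (r = 0.999), Sln (0.994) and Gucy1a1 (0.980), a subunit of the nitric oxide receptor guanylate cyclase. Nearest to Nppa were Acp1, Nsa2 and Tceal8 (r of 0.986, 0.984 and 0.980). Nearest to Dkk3, whose WT 4 value stood well above the other WT libraries, were Rpl5, Kazald1 and Proser1 (r of 0.997, 0.993 and 0.989).

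A list of 14 other atrial genes, drawn up with earlier results of these data known, was then examined in heart. Of the 11 at 1 TPM or more, 10 had a log2 fold change below 0, as did 80.7% of all genes, and 1 passed the test, against 0.15% of all genes tested in heart (18 of 12019). Those 12019 genes take in the 10 listed genes, which were fitted with the rest but are only described here. The median log2 fold change of the 11 was -0.45, and -0.32 and -0.34 after rescaling by median ratios or without the most abundant genes. Sln, which encodes sarcolipin, an inhibitor of the calcium pump of atrial muscle, fell to 0.456, 0.639, 2.69 and 0.531 TPM in Mut hearts, against 64.0, 112, 18.3 and 109.9 TPM in WT hearts (log2 fold change -5.04, SE 0.50, limma adjusted p = 0.00401). Sbk3, a kinase gene 853 bases from Sbk2 on the same strand, had 1.74, 1.15, 1.98 and 0.534 TPM in Mut hearts and 10.9, 19.9, 3.55 and 18.7 TPM in WT hearts. Its groups did not overlap but the gene missed the threshold (log2 fold change -2.42, SE 0.41, limma adjusted p = 0.0535), which it passed without WT 3 (adjusted p = 0.000339). Stard10, a lipid-transfer protein gene, and Pam, which encodes the enzyme that amidates peptides and is abundant in atrial granules, also had all Mut libraries below all WT libraries without passing. Stard10 averaged 18.0 ± 3.51 TPM in Mut and 39.8 ± 13.2 TPM in WT hearts (adjusted p = 0.175), and Pam 138 ± 25.0 and 255 ± 80.8 TPM (adjusted p = 0.339).

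Not every atrial gene was that far apart. Gja5, the gap junction protein connexin 40, averaged 1.97 ± 0.370 TPM in Mut hearts and 3.76 ± 1.28 TPM in WT hearts (SD, n = 4 each; log2 fold change -0.65, adjusted p = 0.371). Kcnj3 and Kcnj5, subunits of the acetylcholine-gated potassium channel, had log2 fold changes of -0.38 and -0.37 with overlapping groups (adjusted p = 0.410 and 0.418). Tbx5, a transcription factor gene of the developing atria, was at -0.45 (adjusted p = 0.429). These 4 genes, and Sbk3, Stard10 and Pam above, were chosen for mention after their values were seen.

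Conduction genes, ventricular genes, genes of both chambers and cardiac transcription factors lay closer to the median of all genes than the other atrial list did (-0.45). The endocardial markers below did not, with a median of -0.50. None of the 7 sinoatrial and conduction genes at 1 TPM or more passed the test, and their median log2 fold change was -0.23, with the largest values in Bmp4 (-0.42) and Etv1 (-0.38). The medians were -0.19 for 7 ventricular genes, -0.18 for 12 cardiomyocyte genes of both chambers and -0.09 for 11 cardiac transcription factors, with no gene called in any of these lists. The median over all genes in heart was itself -0.11. Rescaled by median ratios, which set that median to 0.00, the 3 lists were at -0.06, -0.04 and 0.03. Without Mut 2 the ventricular and cardiomyocyte medians were -0.07 and -0.03, and without Mut 4 the sinoatrial median was -0.09. Gata4, a GATA factor gene of the heart, averaged 32.4 ± 5.95 TPM in Mut and 34.7 ± 2.43 TPM in WT hearts (SD, n = 4 each), values that overlap.

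**Figure D3:**
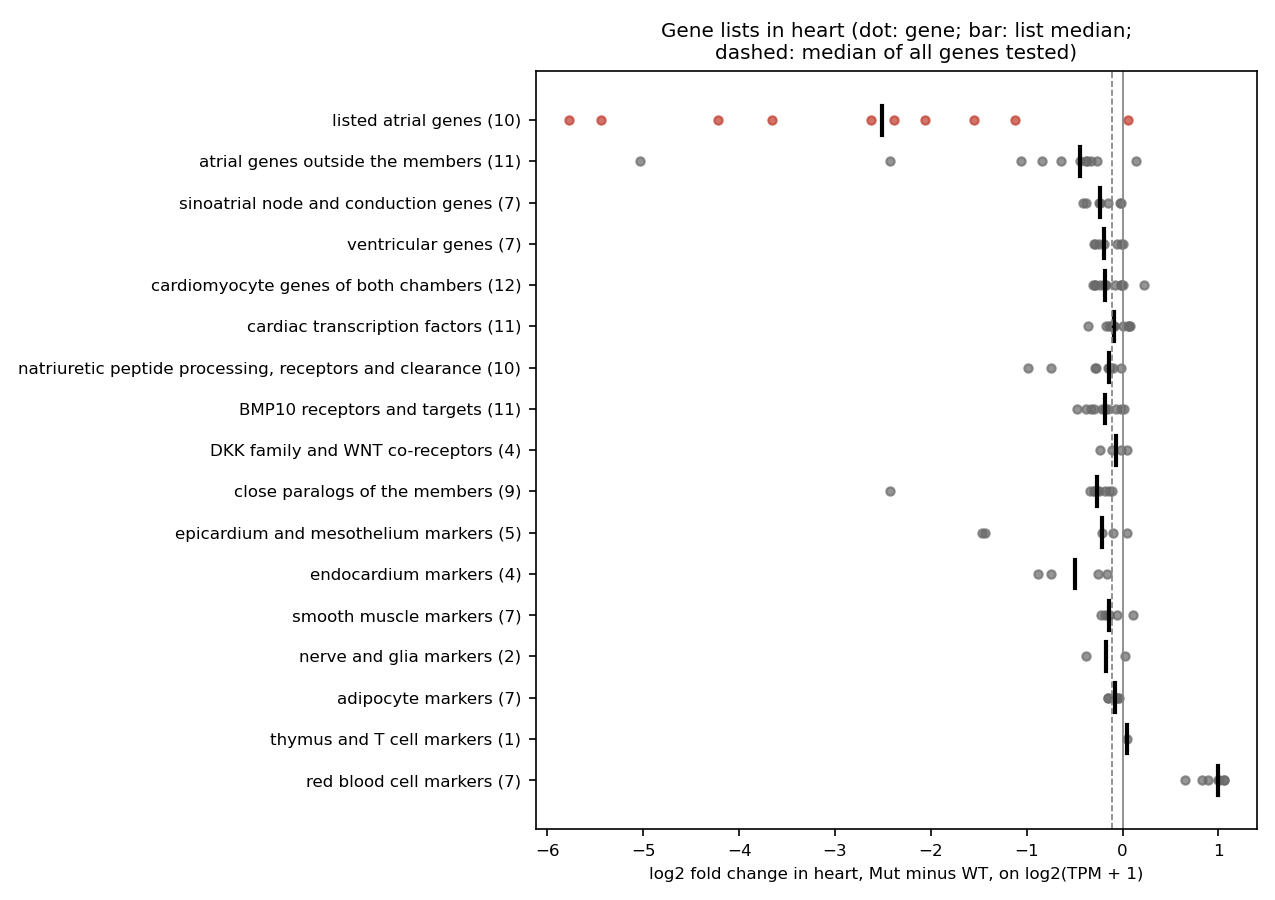
Log2 fold change in heart, Mut minus WT on log2(TPM + 1), for each tested gene (dots) of 17 rows of genes: the 10 listed atrial genes in red, then the other lists, with the number tested in brackets; bars are medians and the dashed line is the median of all genes (-0.11). The listed genes and a few other atrial genes lie far to the left, most lists sit near the dashed line, and the red blood cell genes lie to the right.

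Markers of other cell types of the heart moved with the libraries to differing degrees, and their part in the differences of the atrial genes was not tested. The 10 markers of epicardium and mesothelium, the outer lining of the heart, summed to 4.04 to 5.57 TPM in Mut hearts and 5.20 to 22.4 TPM in WT hearts. All 10 were highest among WT in WT 4, and 8 were lowest in WT 3. Of the 5 that reached 1 TPM, 4 had a log2 fold change below 0, as did 80.7% of all genes, and none was called, with a median of -0.21. That median leaves out the markers under 1 TPM, which all had lower means in Mut hearts. In Mut and WT hearts these were 0.165 and 0.751 TPM for Upk1b, 0.0818 and 0.621 TPM for Krt19, and 0.0199 and 0.377 TPM for Muc16. Bnc1 had 0.00852 and 0.149 TPM, and Lrrn4 had 0.0790 and 0.714 TPM. Msln, which encodes mesothelin, had 0.0972, 0.176, 0.552 and 0.0654 TPM in Mut hearts and 2.31, 2.43, 0.506 and 5.65 TPM in WT hearts (adjusted p = 0.324), and Upk3b had 0.0411, 0.157, 0.517 and 0.103 TPM in Mut and 2.32, 2.09, 0.594 and 6.20 TPM in WT hearts (adjusted p = 0.320). As with the atrial genes, Mut 3 was the highest Mut library and WT 3 the lowest WT library for both.

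The 6 endocardial markers summed to 11.8 to 21.8 TPM in Mut hearts and 16.8 to 36.3 TPM in WT hearts, with a median log2 fold change of -0.50 over the 4 tested and no call. Smooth muscle genes (7 tested, median -0.14), nerve and glia genes (2 tested, -0.18), adipocyte genes (7 tested, -0.08) and T cell genes (1 tested, 0.05) held no called gene. Outside BAT the adipocyte gene Ucp1 stood at 1.45% to 2.30% of its BAT mean, a share like that of Myh6 outside heart (1.31% to 2.43%). The adipocyte value may thus not reflect fat cells of the heart. Lung markers were at or near 0: none reached the minimum for testing, and 6 of 8 were under 0.1 TPM in every heart library. Red blood cell genes went the other way. All 7 tested had higher means in Mut hearts, while 80.7% of all genes had a log2 fold change below 0. The median log2 fold change of the 7 was 0.99, with no call. The summed TPM of the list was 3262 to 26303 in Mut hearts, and 3104 to 6427 in WT hearts. The sum of 26303 TPM was that of Mut 4, the other Mut hearts had 3262 to 6742 TPM, and without Mut 4 the median was 0.36. Among the 10 atrial genes, Mut 4 was the lowest Mut library for Myl4, Tmem163, Sbk2 and Bmp10, and the highest for none. Whether red blood cell content bears on these levels was not tested.

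Genes that act with the members were taken by role. For the natriuretic peptides, 12 genes of processing, receptors and clearance were listed, of which 10 were tested in heart. All 10 had a log2 fold change below 0, as did 80.7% of all genes. After rescaling by median ratios or without the most abundant genes, 8 and 5 of them did. Ide, the insulin-degrading enzyme, which also cleaves natriuretic peptides, was the called one. It fell to 16.8, 17.7, 17.7 and 17.0 TPM in Mut hearts, against 28.1, 38.9, 35.7 and 39.9 TPM in WT hearts (log2 fold change -0.99, SE 0.12, limma adjusted p = 0.00475). Unlike the atrial genes, Ide varied little within Mut hearts, and WT 1 rather than WT 3 was its lowest WT library. Corin, the protease that activates pro-ANP, averaged 44.8 ± 3.72 TPM in Mut and 55.9 ± 14.7 TPM in WT hearts, and Npr3, the clearance receptor, 5.09 ± 1.62 and 9.64 ± 4.60 TPM (adjusted p = 0.397). The list's median was -0.15, near that of all genes.

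Of 12 receptors and targets of BMP10, 11 were tested in heart and none was called (median -0.19, and -0.07 after median-ratio scaling). A log2 fold change below 0 was found for 10 of them, and for 80.7% of all genes. After rescaling by median ratios or without the most abundant genes, it was found for 8 and 7. The largest differences were those of Id2, a target of BMP signalling (log2 fold change -0.47, adjusted p = 0.416), and Smad6, an inhibitor of it (-0.38, adjusted p = 0.444). Eng, the co-receptor endoglin, had 42.2 to 49.0 TPM in Mut hearts, 73.7 TPM in WT 4, the library with high Bmp10, and 41.2 to 52.9 TPM in the other WT libraries. Of the DKK family and WNT co-receptors 4 of 9 were tested and none was called (median -0.06). Dkk1 and Dkk4 were listed at 0 in at least 7 of the 8 heart libraries. Among close paralogs, 9 of 15 were tested, none called, with a median of -0.27. All 9 had a log2 fold change below 0, and after the same rescalings 9 and 7 did. This list shares Sbk3 with the other atrial list, and Myl2, Myl3 and Mybpc3 with the ventricular and cardiomyocyte lists. Fgf13, the paralog of Fgf12 that prevails in mouse ventricle, averaged 33.7 ± 6.18 TPM in Mut and 37.1 ± 5.60 TPM in WT hearts (SD, n = 4 each).

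The genes differed in their levels over the other tissues. In WT mice 9 of the 10 were highest in heart by group mean, and the exception was Sbk2. In the first pattern, of Myl7, Nppa, Nppb, Mybphl, Fgf12 and Tmem163, the lowest WT heart library was above all 24 libraries of BAT, muscle and liver, and the WT heart mean was 12.9-fold (Tmem163) to 104-fold (Mybphl) that of the next tissue. The order among the remaining tissues mostly did not exceed the spread: Myl7 averaged 4.49 ± 1.42 TPM in WT muscle, 4.06 ± 0.433 TPM in WT liver and 2.48 ± 0.596 TPM in WT BAT (SD, n = 4 each), where muscle and liver overlapped and BAT lay below both. Nppa averaged 11.6 ± 3.40, 8.73 ± 0.938 and 7.36 ± 0.870 TPM in the same tissues, each overlapping the next. In those 24 libraries Myl7 stood at 0.462% to 1.60% and Nppa at 0.602% to 1.53% of the WT heart mean, within or below the share that the heart marker Myh6 had outside heart (1.31% to 2.43%).

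Against that level, Mut hearts could be placed. Of the 4 Mut heart libraries, 3 lay inside the range of the other tissues for Myl7 and all 4 for Myl4, Fgf12, Tmem163, Dkk3, Sbk2 and Bmp10. Mut 3 was the one outside it for Myl7. For Mybphl 2 lay inside and for Nppa 1, with the other Mut hearts above it, and for Nppb all 4 Mut hearts were far above the 0.471 to 1.55 TPM of the other tissues. Nppb was thus the single listed gene that was above the other tissues in every Mut heart. Of the 4 WT hearts, 0 lay above the range of the other tissues for Sbk2, 1 for Bmp10 and 2 for Dkk3. For these genes, lying inside that range thus did not by itself set Mut hearts apart from WT hearts.

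**Figure D4:**
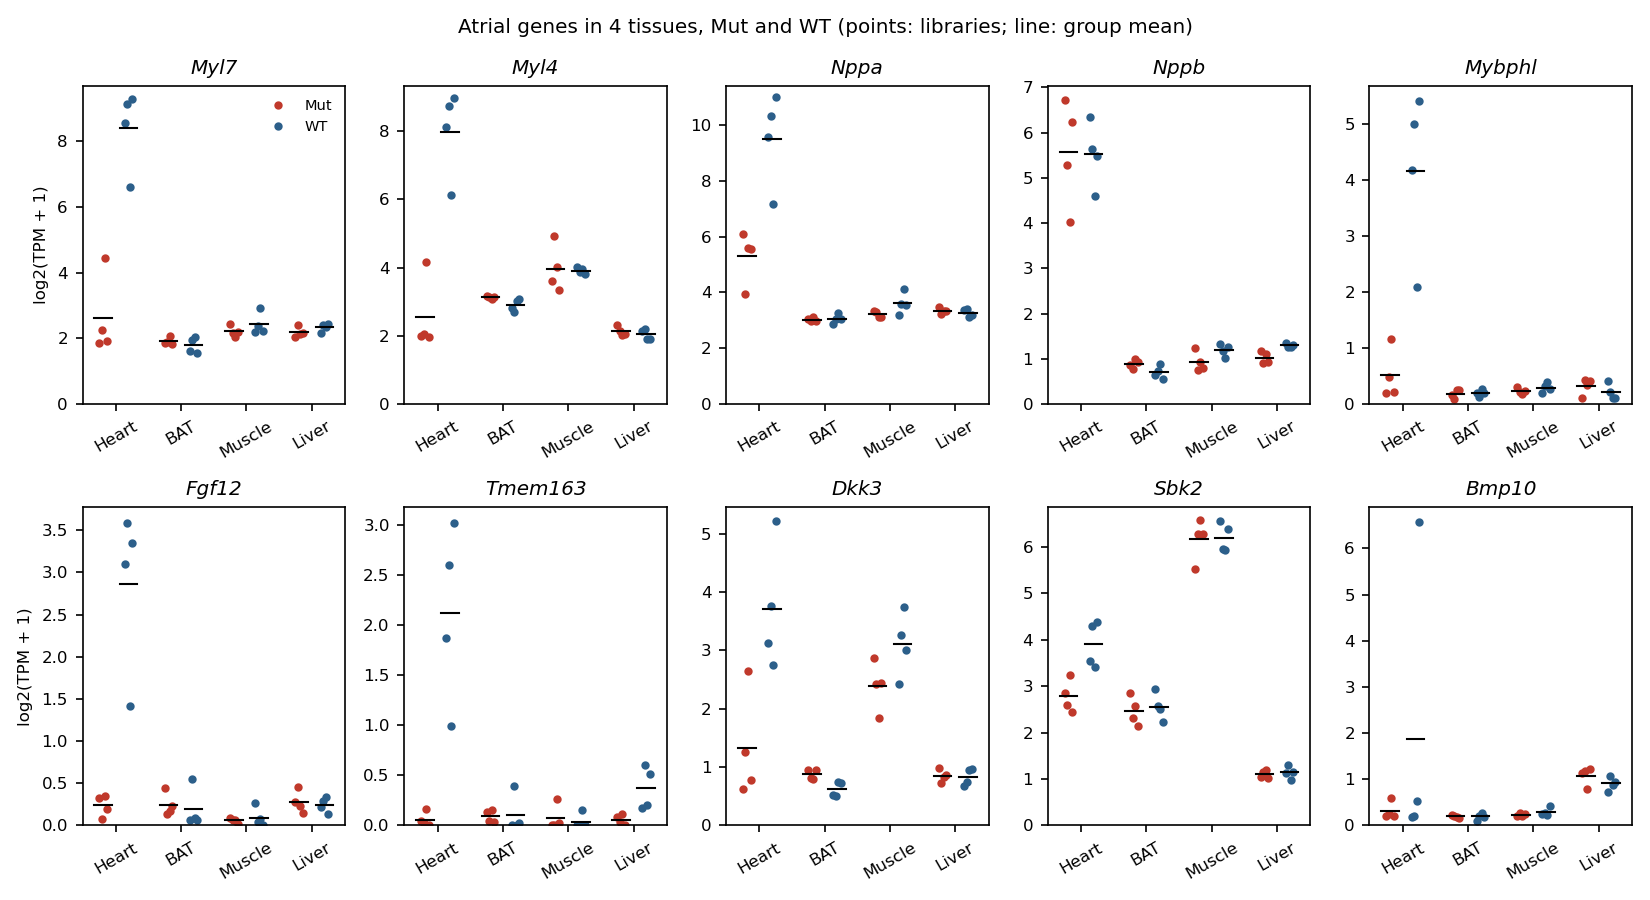
Levels of the 10 genes as log2(TPM + 1) in heart, BAT, muscle and liver, Mut (red) left of WT (blue) in each tissue; points are libraries and lines group means (n = 4). WT hearts stand above the other tissues in most panels, Mut hearts lie near the other tissues for most genes but above them for Nppb, and Sbk2 is highest in muscle in either genotype.

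Myl4 and Dkk3 formed a second pattern, with more RNA in skeletal muscle than in liver and BAT. The lowest WT heart library for Myl4 was still above all libraries of the other tissues. Myl4, which is also made in embryonic muscle, averaged 14.1 ± 1.04 TPM in WT muscle, 6.51 ± 0.883 TPM in WT BAT and 3.12 ± 0.456 TPM in WT liver (SD, n = 4 each), with no overlap between neighbours. The transcript mix also differed from that of heart: Myl4-203, from a start at 104576985, held 17.4% ± 3.06 of Myl4 TPM in WT muscle and 21.3% ± 11.1 in WT BAT, against 0.105% ± 0.110 in WT heart. Dkk3 averaged 8.10 ± 3.34 TPM in WT muscle, which overlapped WT heart (15.5 ± 14.0 TPM), and 0.793 ± 0.180 and 0.544 ± 0.138 TPM in WT liver and BAT.

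Sbk2 and Bmp10 each had a pattern of their own. Sbk2 averaged 73.0 ± 20.2 TPM in Mut muscle and 73.8 ± 16.4 TPM in WT muscle, in WT 5.02-fold above heart, with 4.99 ± 1.25 TPM in WT BAT and 1.22 ± 0.206 TPM in WT liver and no overlap between neighbours in that order. Its neighbour Sbk3 did not share this: it averaged 0.350 ± 0.0399 TPM in Mut muscle and 0.582 ± 0.186 TPM in WT muscle, far below its 13.3 ± 7.61 TPM in WT hearts. Outside heart, Bmp10 was highest in liver, at 1.12 ± 0.274 TPM in Mut and 0.885 ± 0.186 TPM in WT livers, above all libraries of muscle and BAT. Liver, in which stellate cells are known to make BMP10, was above the 3 WT hearts other than WT 4. Without WT 4 the tissue of highest mean in WT was liver for Bmp10, and heart for 8 genes in place of 9.

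Mut and WT were then compared in the tissues that had no part in the choice of the genes. In BAT 4 of the 10 genes reached a mean of 1 TPM and could be tested, in muscle 6 and in liver 6. None was called at an adjusted p under 0.05 in limma, where 0% of genes tested were called in BAT (0 of 12150), 0.0085% in muscle (1 of 11771) and 4.16% in liver (499 of 11994). At an unadjusted p under 0.05, 1 gene stood out in BAT, 2 in muscle and 1 in liver, and 19.5%, 7.76% and 25.9% of all genes did.

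In BAT Myl4 had 8.01, 7.74, 7.48 and 7.80 TPM in Mut and 6.03, 5.52, 7.14 and 7.37 TPM in WT. All Mut libraries were above all WT libraries, as for 7.75% of genes in BAT, and the log2 fold change was 0.23 (SE 0.10, limma adjusted p = 0.234). Myl7, Nppa and Sbk2 overlapped between genotypes there, with log2 fold changes of 0.13, -0.04 and -0.09 (adjusted p = 0.625, 0.861 and 0.836). Dkk3 lay below the minimum for testing in BAT, with 0.740 to 0.927 TPM in Mut and 0.411 to 0.673 TPM in WT.

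In muscle the genes with the smallest adjusted p were Dkk3 and Nppa. Dkk3 had 6.30, 4.39, 2.59 and 4.43 TPM in Mut muscle and 4.38, 8.62, 12.4 and 7.02 TPM in WT muscle, which overlap (log2 fold change -0.71, SE 0.28, limma adjusted p = 0.611). Nppa averaged 8.29 ± 0.810 TPM in Mut and 11.6 ± 3.40 TPM in WT muscle (-0.40, SE 0.17, limma adjusted p = 0.633), again with overlap. Myl4 varied widely in Mut muscle, at 11.2, 29.2, 15.2 and 9.14 TPM, around a WT range of 13.0 to 15.3 TPM. Sbk2 was at a log2 fold change of -0.04 in muscle (SE 0.22, adjusted p = 0.975), against a difference in mean log2 of -1.12 in heart.

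In liver Nppb had 1.24, 0.874, 1.15 and 0.891 TPM in Mut and 1.55, 1.41, 1.40 and 1.46 TPM in WT. All Mut libraries were below all WT libraries, as for 2.12% of genes in liver, and the log2 fold change was -0.27 (SE 0.11, limma adjusted p = 0.146). Outside heart Nppb was at 0.961% to 3.17% of its WT heart mean, against 1.31% to 2.43% for Myh6. Bmp10 in liver was at 0.17 (SE 0.14, adjusted p = 0.458), and Myl7, Myl4, Nppa and Sbk2 lay between -0.15 and 0.10 with overlapping groups. Tmem163, below the minimum for testing, had 0 to 0.0809 TPM in Mut livers and 0.128 to 0.521 TPM in WT livers.

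Ide was called lower in Mut in 3 tissues: heart, muscle and liver. It averaged 49.6 ± 4.91 TPM in Mut muscle and 90.1 ± 4.97 TPM in WT muscle (log2 fold change -0.85, SE 0.08, limma adjusted p = 0.0204), where it was the single called gene but was called in 7 of 15 alternatives, and 26.4 ± 1.21 and 39.3 ± 1.25 TPM in liver (-0.56, SE 0.07, adjusted p = 0.0114). In BAT it averaged 39.1 ± 10.7 TPM in Mut and 30.3 ± 10.1 TPM in WT (SD, n = 4 each; adjusted p = 0.485). In liver the natriuretic list also held a rise of Mme, which encodes neprilysin, a peptide-degrading protease (log2 fold change 0.81, adjusted p = 0.0205), and of Pcsk6, a proprotein convertase (0.49, adjusted p = 0.0435). The other list genes called in liver were Plvap, of fenestrated endothelium (0.82, adjusted p = 0.0205), and Krt8, an epithelial keratin (0.58, adjusted p = 0.0377). Of these liver calls, those of Pcsk6 and Krt8 were lost under median-ratio scaling (adjusted p = 0.140 and 0.0845), which set the median over all genes in liver to -0.02, against 0.10 without it. No gene of the other atrial list was called outside heart.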

How the data were processed

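RNA of 4 tissues was sequenced from strand-specific Illumina libraries, per the labels' protocols. The authors deposited transcript-level TPM, and Salmon is the tool that the submitters' processing notes name. For its version, the transcriptome and the build, the entry is: not given in the sources used here. Of 147493 transcripts, 136081 (92.26%) matched GENCODE M21 on GRCm38 and were summed to 51510 genes. The rest held 0.451% to 0.896% of a library's TPM and were left out.

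Each tissue was fitted with limma 3.58.1 in R 4.3.3 (mean-variance trend) on log2(TPM + 1), keeping genes whose 8 libraries averaged 1 TPM or more. The test was two-sided, and a call needed an adjusted p under 0.05 (Benjamini-Hochberg, over all genes tested). With this pseudocount a low gene's fold change understates its ratio. The p-values measure the spread between these libraries. The procedure was run on simulated data, drawn independently for each gene and library. Shifts shared by many genes of a library were not simulated, so that run does not cover them. Tables and figures were made with Python 3.11.15.

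The 10 genes and the 17 gene lists were chosen with earlier results of these data known. Of each list, called genes were named, else up to 2 with the largest fold change in heart. Further genes are named by role, chosen after their values were seen. Likeness was ranked by Pearson's r over the 8 heart libraries. Replicate numbers did not pair the samples. Alternatives were another pseudocount, other filters, 2 scalings, no trend, the replicate number as a block, and leaving out each library. Those on levels across tissues, on the order of heart libraries and on list medians without single hearts were chosen after seeing the data.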

Additional observations from a re-analysis of the deposited data

Results flagged for a closer look

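In 49 groups of 4 libraries a single library was looked for that stood apart from the other 3, and 3 were found, where chance gives about 1 in 20 groups. Myl7 in Mut hearts had 20.6 TPM in replicate 3 and 2.64 to 3.76 TPM in the other 3. Myl4 had 17.1 TPM in the same library, against 2.92 to 3.18 TPM in the others. Bmp10 in WT hearts had 93.6 TPM in replicate 4, against 0.134 to 0.451 TPM in the others.

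The Mut minus WT difference of Myl4 had opposite directions in 2 tissues: 0.23 in BAT, where every Mut library was above every WT library, and -5.44 in heart, where every one was below. The difference between the tissues was not tested.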

How the results depend on the processing

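No member was called in BAT, muscle or liver under any of the 15 alternatives per tissue. The lowest adjusted p was 0.130, 0.175 and 0.0980. In heart the signs of 8 members held under all 11 alternatives. Bmp10 ran from -2.12 (without WT 1) to 0.011 (without WT 4) with single libraries left out, and Nppb, near 0, ranged from -0.33 to 0.57. The median over members was -4.38 with a pseudocount of 0.1, and -2.91 to -2.17 with single libraries left out. The tissue count was 8 or 9, and the count of genes with the WT order 4, 2, 1, 3 was 6 or 7. Counts of called genes moved more. Without the filter there were 7 in BAT, 0 in heart, 11 in liver and 2 in muscle, where 51510 genes were tested. With a minimum of 5 TPM there was 1 in BAT and 10 in heart. With median-ratio scaling there were 11 in heart and 307 in liver (148 higher and 159 lower, against 453 and 46 without it). The samples share only a number: with the replicate block there were 9 calls in heart, 126 in liver and 0 in muscle, and the correlations of same-numbered libraries ran from -0.248 to 0.141. With single libraries left out, calls ran from 0 to 819 in BAT (819 without WT 3, 1 without WT 4), 7 to 20 in heart (7 without WT 4), 22 to 390 in liver (22 without WT 3) and 0 to 8 in muscle (8 without Mut 1). The 8 list calls over the tissues became 1 without the filter, 5 with the block, and 4 to 17 with single libraries left out (4 without liver Mut 1 or liver WT 3, 5 without liver Mut 2, 17 without BAT WT 3). Sln and Ide in heart were called in 14 of 15 alternatives, Ide in liver in 15, Ide in muscle in 7 (adjusted p up to 0.226), Mme in 12, Plvap in 11, Krt8 in 4 and Pcsk6 in 3. Mme and Plvap were lost without liver Mut 1 or liver WT 3 (adjusted p of 0.0545 to 0.0619), Plvap also without liver Mut 2 (0.0515). Sbk3 passed with a minimum of 5 TPM (adjusted p = 0.0280) and without WT 3 (0.000339), and Stard10, Msln and Upk3b passed without WT 3 alone. The causes of these shifts were not tested. The unknown depth limits values under about 1 TPM.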

Other observations

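WT heart 4 differed from the other hearts in more than Bmp10. Cacna2d2, a calcium channel subunit gene of the atrial list, had 0.248 to 0.500 TPM in Mut hearts and 2.40 TPM in WT 4, with 0.359 to 0.424 TPM in the other WT hearts. Cpne5, from the sinoatrial list, had 0.0105 to 0.401 TPM in Mut hearts and 2.49 TPM in WT 4, with 0.190 to 0.480 TPM in the other WT hearts. Both were chosen after their values were seen. Vsnl1, also of that list, was listed at 0 in 3 Mut hearts and had 0.0378 TPM in Mut 3, against 0.0831 to 0.213 TPM in WT hearts. Kcna5, an atrial potassium channel gene, was the atrial list gene with the opposite sign, at 5.47 ± 0.895 TPM in Mut and 4.92 ± 1.25 TPM in WT hearts (SD, n = 4 each), which overlap.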
